A study of Betula luminifera with 2 samples.

Results

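The 24-nt candidates are predicted small RNAs of the birch Betula luminifera whose listed mature sequence is exactly 24 nt long. They were taken from the entries that had no match among the miRNA precursors of miRBase, the public miRNA registry, but mapped to genome contigs whose surrounding sequence may fold into a hairpin. This left 237 entries with 212 distinct sequences, of 326 candidates of any length and 505 distinct sequences in all. All samples came from clone G49#, from tissue culture seedlings aged 2 months, with equal amounts of root, stem and leaf RNA pooled for the small RNA library. The series holds a single library of small RNAs and 1 degradome (sequenced 5′ ends of cut messenger RNAs), so no tissue, treatment or replicate could be compared. Every test below runs across sequences or hairpins of 1 library, which are not replicates.

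In plants, most small RNAs of 24 nt are short interfering RNAs. RNA polymerase IV transcribes transposons and other repeats, the Dicer-like protein DCL3 cuts the double-stranded product, and the guide strand enters Argonaute proteins of the AGO4 group, which favour a 5′ adenine and direct DNA methylation. Canonical plant miRNAs are instead cut by DCL1 from an imperfect hairpin as a duplex with short 3′ overhangs at both ends, are mostly 21 nt long, and enter AGO1, which favours a 5′ uracil. A hairpin that gives 24-nt products can therefore belong to either system. The favoured first base is among the features that differ between them, and which system made the candidates was not tested.

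The 10 candidates with the most reads are shown first, because they carry 36.0% of the reads of the class. Each is written 5′ to 3′ with the seed (bases 2 to 8) in capitals and uracil as T, as in the deposited file.
PC-5p-2111_271: aTCAGCCCaggacacatgaacagt
PC-3p-8147_80: gGTTGGACgacttggtaggacacc
PC-3p-6978_93: aAAATGATccaatggatatggact
PC-3p-52657_9: aACCAAGAtcgcgcactcatcgtc
PC-5p-16296_40: cAACATCCcaggacacatgaacag
PC-5p-7685_85: aCAAGGTAgacatggaaggtaact
PC-5p-36150_15: aCGATGAGtgcacgatctcggttg
PC-3p-17770_35: aTGGAAACaggttacacgtcggcc
PC-3p-13103_49: gTTCATGTgtcctgggctgatgca
PC-3p-49322_11: tCATTAGGcctgaactgaatgact
Adenine is the first base of 6 of these 10, and uracil of 1.

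The class was numerous but thinly read. The 212 sequences held 3158.5 reads, or 0.520% of the 607592 listed reads (exact binomial interval at 95%, 0.502 to 0.538%), and 36.5% of the 8656.5 candidate reads (35.5 to 37.5%). The first share rests on 1 matched sequence that holds most of the listed reads, and without it the share was 3.36%. The total of listed reads is not the depth of the library, which was not used here, and the intervals cover counting error only, since reads copied by PCR and lacking molecular identifiers cannot be taken as independent molecules. Reads not whole arise where the authors divided them among entries. A median of 9.25 reads per sequence was found, with quartiles of 4 and 13, a lowest value of 1 and a highest of 283.5. The 72 candidates of 21 nt, the other large length class, had a median of 12.5 reads, quartiles of 7 and 30.4, and a highest of 1259.5. Of the 24-nt candidates, 104 had at least 10 reads, 5 at least 100 and 26 no more than 1.

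**Figure D1:**
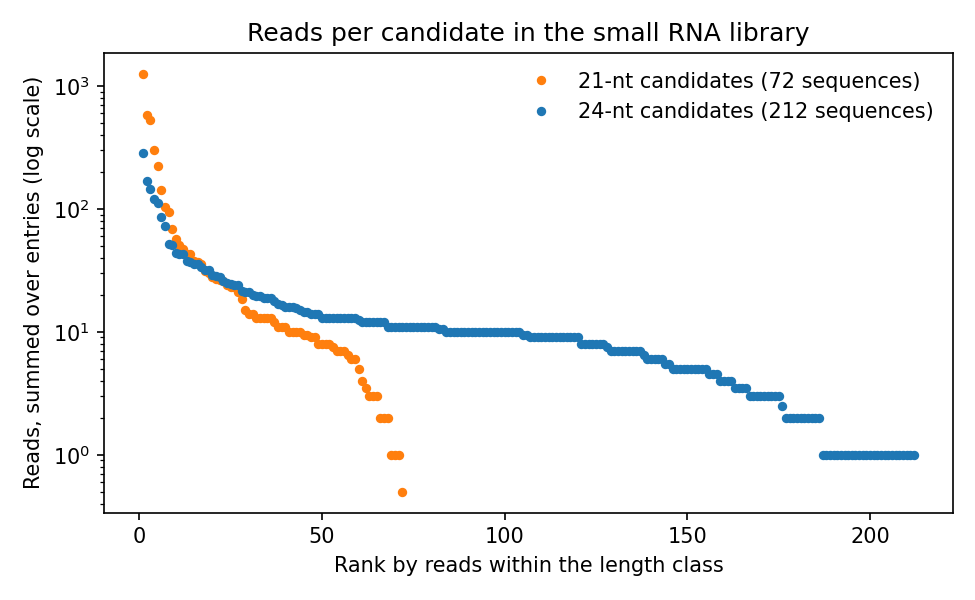
Reads per candidate (log scale) against its rank by reads within its length class, 1 point per distinct sequence, for the 24-nt (blue) and 21-nt (orange) candidates of the small RNA library. The highest 24-nt candidate had 283.5 reads and the highest 21-nt candidate 1259.5, while the 24-nt class runs on to 212 sequences, 26 of them with no more than 1 read.

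The most-read candidate, PC-5p-2111_271, had 283.5 reads, 8.98% of the reads of the class. These were divided between contig_141175:75-258 (142.5 reads) and contig_161132:7-140 (141 reads), both on the plus strand. PC-3p-8147_80 had 170 reads from contig_270133:207-466 (plus strand), and PC-3p-6978_93 had 146, of which 80.5 were assigned to contig_70626:838-1037 and 65.5 to contig_227489:1302-1488, both on the minus strand. These 3 precursor sets differed in base content, with 44 and 48.5% GC for the first, 30.4% for PC-3p-8147_80 and 31.5 and 29.4% for PC-3p-6978_93. PC-3p-52657_9 (121 reads) and PC-5p-36150_15 (73 reads) were listed as the 3p and 5p arms of the same hairpin, at contig_73413:1-188 on the plus strand. PC-5p-16296_40 had 112.5 reads, divided between contig_16775:2390-2529 (58.5) and contig_241396:1907-2013 (54). The remaining 4 of the first 10 had between 44 and 86 reads. The contigs carry no gene annotation in the tables used, so whether a locus lies in a gene was not analysed here.

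Most 24-nt candidates began with adenine. It opened 154 of 212 sequences (72.6%, 66.1 to 78.5%), against 17 of the 72 candidates of 21 nt (23.6%, 14.4 to 35.1%). The difference of 49.0 percentage points passed Fisher's exact test, two-sided, with p = 3.5e-13 and, adjusted over 4 comparisons by Benjamini-Hochberg, 1.4e-12. Uracil, the usual first base of canonical miRNAs, opened 18.9% of the 24-nt candidates (13.8 to 24.8%) and 44.4% of the 21-nt candidates (32.7 to 56.6%; Fisher's exact p = 3.6e-05, adjusted 7.2e-05). Both tests count the sequences as independent. Of the 212, 111 shared a stretch of at least 15 nt with another on either strand, so these p-values may be too small. Guanine was first in 11 of the 24-nt candidates and cytosine in 7. The 17 matched sequences of 24 nt, which resemble miRNAs of other species, began with adenine in 8 cases and with uracil in 7.

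The adenine share varied little within the class. It was 70.8% among 106 candidates named for the 5p arm and 75% among 104 named for the 3p arm. By read number it was 66% under 4 reads, 74.1% from 4 to under 10, 76.5% from 10 to under 30, and 68.4% of the 19 sequences with at least 30 reads (interval 43.4 to 87.4%). The intervals of these shares overlapped. Weighted by reads, adenine-first sequences held 73.5% of the reads of the class, against 12.6% of the reads of the 21-nt candidates. In those, 60.5% of the reads were in sequences that began with uracil.

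Beyond the first base, no base reached such a share. Adenine made up between 11.3 and 44.8% of the sequences at positions 2 to 24, with a median over these positions of 28.8%. Uracil was last in 53.8% of the sequences. The next highest shares were 44.8% adenine at position 22, 43.9% adenine at position 16, 42.0% uracil at position 2 and 41.5% cytosine at position 23. The last 3 bases were A, C and U in 30 of the 212 sequences (14.2%, 9.76 to 19.6%) and in 4 of the 72 candidates of 21 nt (5.56%, 1.53 to 13.6%), a difference that was not tested. Uracil was also the most frequent last base of the 21-nt candidates, at 43.1%.

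**Figure D2:**
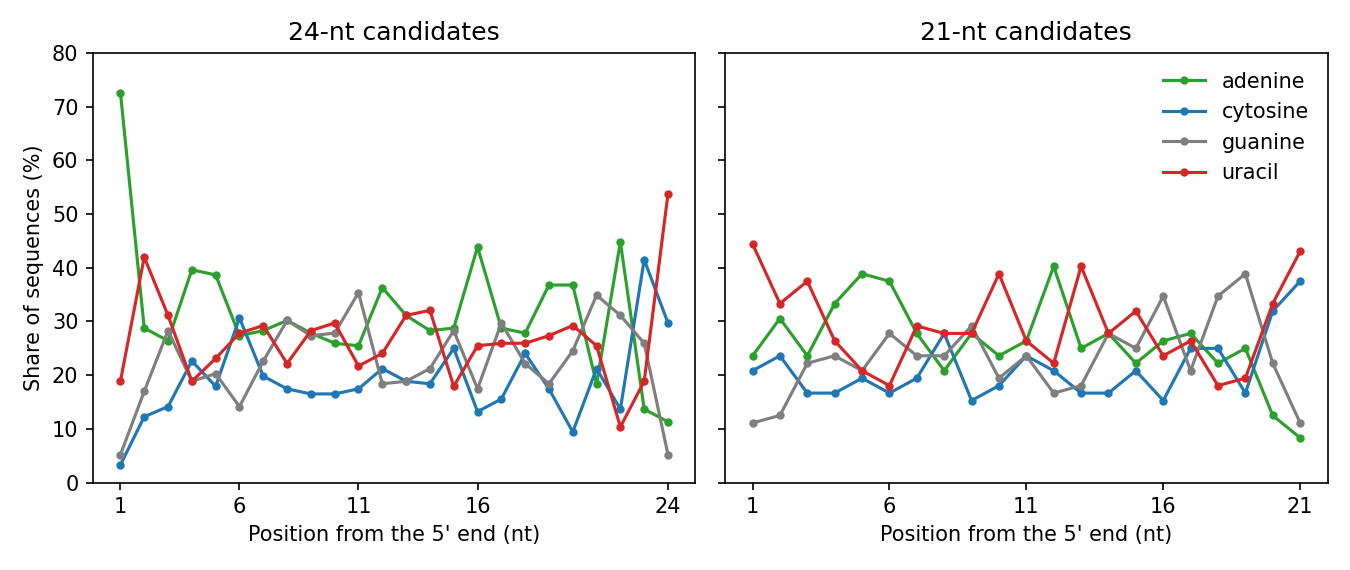
Share of sequences (%) with each base at each position from the 5′ end, over the 212 distinct 24-nt candidates (left) and the 72 distinct 21-nt candidates (right). Adenine stands at 72.6% at position 1 of the 24-nt class and at 23.6% in the 21-nt class, and uracil rises to 53.8% at position 24.

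The 24-nt candidates came about equally from both arms of their hairpins. Of the 210 sequences listed on 1 arm alone, 106 were named for the 5p arm (50.5%, 43.5 to 57.4%), against 30 of 72 among the 21-nt candidates (41.7%, 30.2 to 53.9%; Fisher's exact p = 0.22, adjusted 0.29). The other 2 sequences were 5p at 1 locus and 3p at another. They were PC-3p-29329_19 with 19 reads and PC-3p-52058_9 with 10, which are also listed as PC-5p-29329_19 and PC-5p-52058_9. These were picked out after their values were seen. In 64 hairpins the listed 5p and 3p sequences were both 24 nt long, which adds to both arms alike. In 19 others the arms were a 24-nt and a 21-nt candidate, which puts opposite arms into the classes compared. The even share thus follows in part from such pairs, and the test counts the sequences as independent.

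The listed precursors were close in length and folding index to those of 21-nt candidates and had a lower median GC content. The 212 sequences lay in 173 hairpins on 164 contigs. Their precursors had a median length of 155 nt (quartiles 140 and 176), beside 148.5 nt (114.75 and 183.25) for the 68 hairpins of 21-nt candidates. Their median GC content was 34.4% (quartiles 30.4 and 41.3%), beside 40.75% (35.5 and 44.3%), and 38 of the 173 were under 30% GC, beside 4 of the 68. The minimal folding energy index, which divides folding energy by length and by GC content, was 1.3 at the median (1.1 and 1.6), beside 1.4 (1.1 and 1.6). These 2 sets share 19 hairpins that hold a candidate of each length. No test was made of these medians. The lowest index of each set was 0.9, and the folding limits in the file header name no index.

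**Figure D3:**
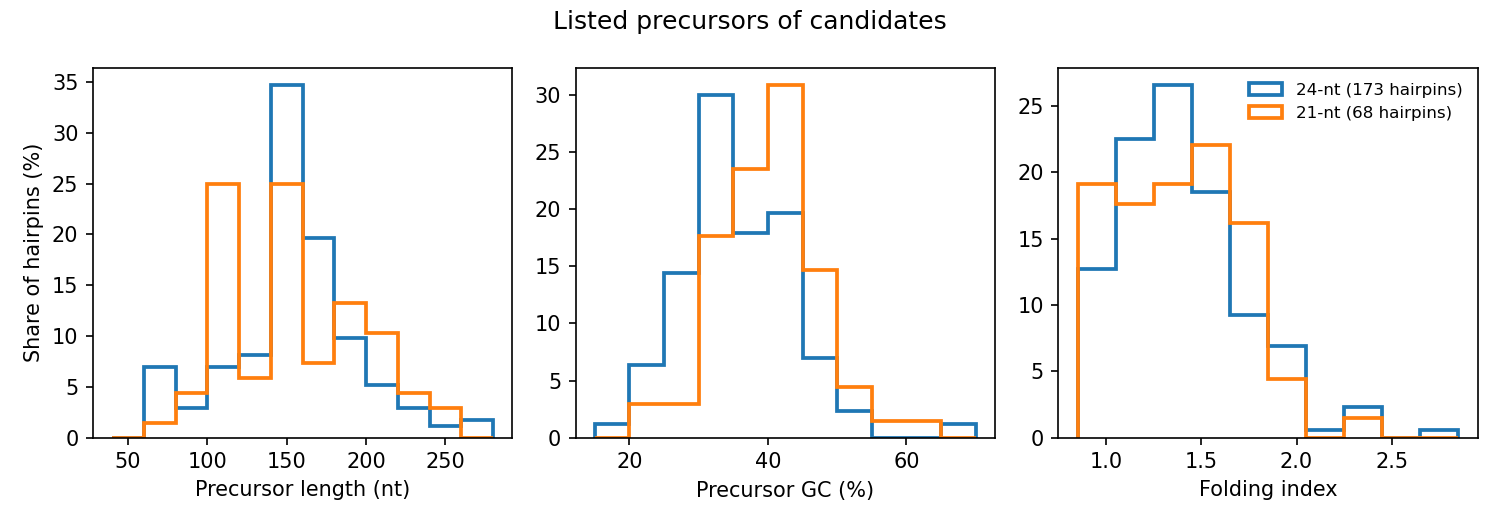
Distribution of precursor length (nt), GC content (%) and folding index over the listed hairpins, as the share of hairpins (%) per bin, for 173 hairpins of 24-nt candidates (blue) and 68 of 21-nt candidates (orange), 19 of them in both sets. The median GC is 34.4% in the first set and 40.75% in the other, while the median folding indices are 1.3 and 1.4.

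The extremes show how varied these hairpins were. The shortest precursors, with 60 nt, were those of PC-5p-236350_2 (8 reads, contig_153999:289-348, minus strand) and PC-5p-43116_12 (17 reads, contig_9672:30-89, plus strand), and the longest, with 263 nt, to PC-5p-48639_10 (13 reads, contig_326301:632-894, plus strand). GC content ran from 17.6% for PC-3p-88261_5 (11 reads, contig_139064:59-189, minus strand) to 66.7% for PC-3p-104053_4 (12 reads over 2 loci, of which contig_139408:283-369, minus strand, is the richer in GC). The index ran from 0.9 to 2.7. An index of 0.9 was listed for 5 hairpins, among them that of PC-3p-45611_11 at contig_187109:1-147, whose other locus had 1.3. The highest belonged to the hairpin of PC-3p-138018_3 and PC-5p-138947_3 (5 reads each, contig_331997:2197-2399, minus strand), a precursor of 203 nt with 26.1% GC. Within the listed structure the mature sequence had a median of 22 paired bases of its 24 (quartiles 20 and 23). In 7 of the 237 entries fewer than 12 bases were paired, under the minimum that the file header gives for the mature region, and in 2 of these none was.

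Not every candidate matched its own contig. Placed on its listed precursor without gaps, the mature sequence was exact in 132 of 237 entries (55.7%, 49.1 to 62.1%) and differed by 1 base in the other 105. No entry had more than 1 mismatch. Counted by sequence, 116 of 212 were exact at 1 locus or more, and their median of 10 reads stood beside 8 for the rest. Of the 105 mismatches, 85 (81.0%, 72.1 to 88.0%) exchanged A with G or C with T, and 29 lay in the last 3 bases. The 21-nt candidates were exact in 47 of 87 entries (54.0%, 43.0 to 64.8%). The adenine share was 72.4% among sequences with an exact locus and 72.9% among those without.

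The other arm of the hairpin was listed for most of the class. This was so for 157 of 212 sequences (74.1%, 67.6 to 79.8%) and for 53 of 72 candidates of 21 nt (73.6%, 61.9 to 83.3%; Fisher's exact p = 1, adjusted 1). The lowest read number of a sequence without a listed partner was 5.5, and every sequence with fewer reads had one. The share thus depends in part on which low-read sequences were listed. With a minimum of 10 reads it was 56.7% (-9.18 percentage points from the 21-nt candidates). The test counts sequences as independent, but both sequences of a listed pair have a partner by definition. In 19 hairpins the pair was a 24-nt and a 21-nt candidate, so it counts in both classes. By hairpin, 104 of the 173 had both arms listed. The partner of a 24-nt candidate was also 24 nt long in 64 of these, 21 nt in 19, 23 nt in 10 and of another length in 11. Reads of the arms were unequal, with a median ratio of 4.62 between the higher and the lower arm of the 64 hairpins with 24 nt on both sides. The 5p arm was the higher in 39 of them, the 3p arm in 20, and 5 were equal. Both arms had at least 10 reads in only 3 of the 64, and in 20 an arm had no more than 1 read. Of the 59 unequal ones, the higher arm began with adenine in 43 and the lower arm in 35.

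Few listed arm pairs of 24-nt candidates had short 3′ overhangs at both ends. A Dicer cut leaves 3′ overhangs of about 2 nt at both ends of the duplex, and these overhangs were measured from the listed structure. They were between 1 and 3 nt at both ends in 8 of the 64 pairs of 24-nt candidates (12.5%, 5.55 to 23.2%). In pairs of matched miRNAs whose hairpin lies on a contig, measured alike, this held for 22 of 31 (71.0%, 52.0 to 85.8%). The difference of -58.5 percentage points gave a two-sided p of 2e-08 by Fisher's exact test (adjusted 4e-08 over 2 comparisons), a comparison chosen after the values were seen. Matched miRNAs are chosen by likeness to known ones, which can set part of this difference. Pairs of 21-nt candidates met the condition in 4 of 19 cases (Fisher's exact p = 0.46, adjusted 0.46 against the 24-nt pairs). In 15 of the 64 pairs the arms shared no base pair at all, and in 31 at least 12.

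**Figure D4:**
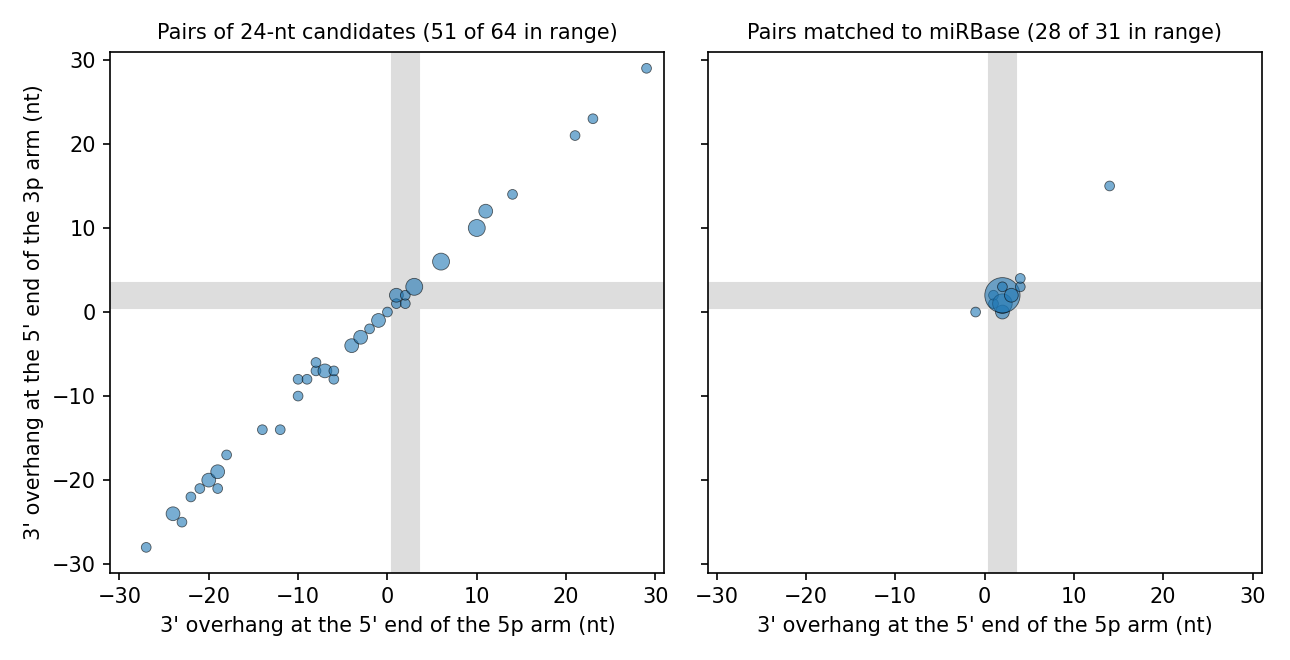
3′ overhang (nt) at either end of the duplex formed by the 5p and 3p sequences of 1 hairpin, for pairs of 24-nt candidates (left) and pairs matched to miRBase (right), where point area grows with the number of pairs, grey bands mark 1 to 3 nt, and values below 0 are recessed ends. Within 30 nt lie 51 of 64 candidate pairs, strung along the diagonal, and 28 of 31 matched pairs, most of them inside the crossing of the bands.

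Among the 5 pairs with the most summed reads, the best balanced was that of PC-5p-36150_15 and PC-3p-52657_9, with 73 and 121 reads. It had overhangs of 1 and 1 nt and 21 base pairs between the arms. Its precursor is shown because both arms are among the 10 most-read candidates, with the arms in capitals (contig_73413:1-188, plus strand, 53.7% GC, index 1.3).
PC-5p-36150_15 and PC-3p-52657_9: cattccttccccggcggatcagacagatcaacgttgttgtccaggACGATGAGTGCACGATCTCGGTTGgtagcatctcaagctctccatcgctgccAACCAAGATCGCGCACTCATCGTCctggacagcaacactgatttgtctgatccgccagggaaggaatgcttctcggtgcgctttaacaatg
The most-read candidate had a partner at each of its loci, and the geometry differed between them. At contig_141175 PC-5p-2111_271 faced PC-3p-85107_6 (5.5 reads there) with overhangs of 3 and 3 nt and 20 base pairs, and at contig_161132 it faced PC-3p-49989_10 (11 reads there) with ends recessed by 8 and 6 nt and 14 base pairs.
PC-5p-2111_271 and PC-3p-85107_6: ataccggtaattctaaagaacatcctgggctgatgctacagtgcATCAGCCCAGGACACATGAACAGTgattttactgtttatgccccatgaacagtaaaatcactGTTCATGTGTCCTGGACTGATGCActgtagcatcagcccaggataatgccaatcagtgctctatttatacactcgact
PC-3p-8147_80 (170 reads) faced PC-5p-930593_1 with overhangs of 2 and 1 nt and 19 base pairs, but that partner had 1 read.

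The other 2 of the 5 most-read pairs had 9 and 0 base pairs between the arms in the listed structure. PC-3p-572118_1 (1 read) and the 23-nt PC-5p-20699_30 (181 reads) at contig_3454:354-522 had overhangs of 15 and 14 nt and 9 base pairs. The pair with the most summed reads was the 21-nt PC-5p-3808_166 (581 reads) with the 24-nt PC-3p-57416_8 (32 reads) at contig_46726:495-749, and its arms shared no base pair. They held instead the same stretch of 17 nt in the same orientation, so in it these sequences are alike and not complements of each other. Whether the stretch occurs once or more in the precursor was not tested.
PC-5p-3808_166: tataacaaagtctgaatggtt
PC-3p-57416_8: acaaagtctgaatggttgttcgta
Pairs with fewer reads, of which examples follow, were not alike in base pairing. PC-3p-104053_4 (6 reads at each of its 2 loci) faced the 25-nt PC-5p-5295_120 (98 and 96 reads) with overhangs of 2 and 3 nt and 21 base pairs, while PC-5p-7685_85 (86 reads) and PC-3p-939807_1 (1 read) shared none. In all, 4 of the 104 pairs with a 24-nt candidate shared at least 12 nt in the same orientation. The only pair with overhangs of exactly 2 nt at both ends was PC-5p-61649_7 (13 reads) with PC-3p-129934_3 (3 reads there) at contig_40446:2347-2535, minus strand, picked out here for that value.

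Many of the 24-nt candidates shared a stretch of sequence with another. When sequences sharing a stretch of at least 15 nt on either strand were linked, 111 of 212 (52.4%, 45.4 to 59.2%) fell into 29 groups. Such a link can also join both arms of 1 hairpin, as with PC-5p-16296_40 and PC-3p-78547_5 at contig_241396. It can likewise join hairpins that overlap on opposite strands, as with PC-3p-271790_2 and PC-5p-227305_2 at contig_123178. The groups therefore do not count copies at separate loci, and links within a locus were not separated out. The largest had 24 sequences and 702 reads, 22.2% of the reads of the class, and the next had 12. With a stretch of 12 nt, 142 were in groups and the largest held 96 sequences with 45.4% of the reads. With 18 nt, 54 were in groups and the largest held 18. Of the 72 candidates of 21 nt, 33.3% were in groups at 15 nt, 41.7% at 12 nt and 12.5% at 18 nt. Such shares rise with the number of sequences searched, so no test was made against this smaller class. A total of 19 pairs of candidates differed by 1 base over their whole length, and 4 sequences were exact reverse complements of another. Adenine opened 16 of the 24 sequences of the largest group at 15 nt, and 73.4% of those outside it.

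Common seeds show these relations at single bases. The 212 sequences had 171 distinct seeds, of which 27 were shared by 68 sequences. TCAGCCC and TTCATGT were the most common, each in 5. The 5 sequences with the first of these are shown, seed in capitals, because they differ from PC-5p-2111_271 by 1 base each, at base 11, 24, 21 and 14 in the order of the lines after it. All but PC-5p-56940_8 were in the largest group at 15 nt.
PC-5p-2111_271: aTCAGCCCaggacacatgaacagt
PC-5p-56940_8: aTCAGCCCagaacacatgaacagt
PC-5p-78238_5: aTCAGCCCaggacacatgaacagc
PC-5p-94906_4: aTCAGCCCaggacacatgaatagt
PC-5p-110010_4: aTCAGCCCaggacccatgaacagt
The variants had 24.5, 19.5, 9.5 and 3.5 reads, against 283.5 for the first. Of the variants, PC-5p-94906_4 matched its contig exactly (contig_166131:1057-1200, minus strand), while the other 3 had 1 mismatch at every listed locus. They were listed at other contigs than PC-5p-2111_271.

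An octamer was shared by part of the class. The most frequent stretch of 8 nt, counted with its reverse complement, was ACTGTTCA or TGAACAGT, present in 43 of the 212 sequences (20.3%, 15.1 to 26.3%) with 764.5 reads. It was chosen from these sequences, so its share is a description only. It was found in 5 of 72 candidates of 21 nt, in 2 of 42 candidates of other lengths and in 1 of 179 matched sequences. In 15 of the 24-nt candidates TGAACAGT formed the 3′ end, and in 4 ACTGTTCA formed the 5′ end. In the lines below it is in capitals.
PC-5p-2111_271: atcagcccaggacacaTGAACAGT
PC-5p-48639_10: taagcctgagctgaaaTGAACAGT
The octamer, read on either strand, occurred in 75 of the 173 precursors (43.4%) and in 11 of the 68 precursors of 21-nt candidates (16.2%). The 173 precursors contain the sequences it was chosen from, so their share is also a description only. In both sets were 19 hairpins.

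Some shorter candidates lay wholly within a 24-nt candidate. This was so for 9 members of the class. PC-5p-16296_40 (112.5 reads) contained the 21-nt PC-5p-14095_46 (94 reads) from base 4 on, and PC-5p-2111_271 contained PC-5p-46600_11 (56.5 reads) from base 4 on and PC-5p-221145_3 (2 reads) from base 1 on. Per the file headers, a read number counts the isoforms of an arm, and the sequence shown is the read with the best mapping score of its cluster. The reads of a 24-nt candidate may thus include reads of other lengths, and their number was not given in the tables used here.

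Most candidates were placed at 1 locus. A total of 187 sequences had 1 entry and 25 had 2, and none had more. The 25 held 950.5 reads, 30.1% of the class. At 21 of them the listed reads differed between the loci, by a median ratio of 1.33 over all 25 and of 3.33 at most. PC-5p-2111_271, PC-3p-6978_93 and PC-5p-16296_40 were the most-read sequences with 2 loci. Of the 173 hairpins, 21 overlapped another listed hairpin on the opposite strand of its contig, as at contig_141175, where PC-5p-70114_6 was listed on the minus strand (119 to 286) with 15 reads there, across the precursor of PC-5p-2111_271 at 75 to 258 on the plus strand.

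The degradome asked whether transcripts are cut opposite these sequences. In the authors' deposited table a target was listed for 3 of the 212 candidates (1.42%, 0.293 to 4.08%), while 12.7% of all 505 listed sequences had one, and for 3 of the 72 candidates of 21 nt. These 3 had 5 alignments to 3 transcripts. A category of 0 or 1 in the authors' deposited table was given to 2 of the 212 candidates (0.943%, 0.114 to 3.37%), while 6.14% of all 505 listed sequences had one. What the categories stand for is not stated in the tables used. The transcripts carry assembly names only.

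PC-5p-1370707_1 (3 reads) and PC-5p-446421_1 (1 read) were listed against the same site on CL5973.Contig1 and CL5973.Contig2, contigs of 1 assembly cluster. The small RNAs and their site are shown 5′ to 3′, because the site resembles other candidates of the class, with the seeds in capitals.
PC-5p-1370707_1: aTGTTACAttgcatcagcctgggc
PC-5p-446421_1: aTGCTACAgtacatcagcctggac
CL5973 site: acccaggcugaugcacuguagcau
On CL5973.Contig2 the 4 reads at position 108 were all the reads of the transcript, with category 1 and a p-value of 0.003 in the authors' deposited table. On CL5973.Contig1 the position, 1500, also had 4 reads, of 5079 on the transcript (0.0788%, 0.0215 to 0.202%), with category 3 and a p-value of 0.11 in the authors' deposited table. None of the 4 reads matched either contig alone, and divided by their matches they count as 2 on each, so the 4 alignments are not separate signals. On CL5973.Contig1, 305 of 400 positions with reads held more than 4. The highest number, 56, was held by position 1356 and also by the position at a distance of -131 nt from the listed one.

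The site on CL5973 was itself like a 24-nt candidate. In the sense direction it shared 21 nt with PC-3p-29329_19, a candidate with 19 reads, picked out here for that overlap.
PC-3p-29329_19: cagcccaggctgatgcactgtagc
In the antisense direction the longest shared stretch was 16 nt, with PC-5p-125783_3 (5.5 reads), which has no listed target. It was 14 nt with PC-5p-1370707_1. Both PC-3p-29329_19 and PC-5p-1370707_1 were in the largest group linked at 15 nt, and PC-5p-446421_1 was not.

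PC-3p-129934_3 had 7 reads, 3 and 4 at its loci contig_40446:2347-2535 and contig_9821:1492-1676, and was listed against Unigene10101 with a gap in the alignment.
PC-3p-129934_3: tTTTCTAAaatcgactacggttct
Unigene10101 site: augaucg-agucgauuuuaggaaa
There, 7 of 145 reads lay at position 1416 (4.83%, 1.96 to 9.69%), and all 7 matched that transcript alone. The category was 2 and the p-value 0.086, from the authors' deposited table. Among the 22 positions with reads, 10 had more, and the median was 7 reads. The listed position was thus at the middle of the reads of this transcript.

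**Figure D5:**
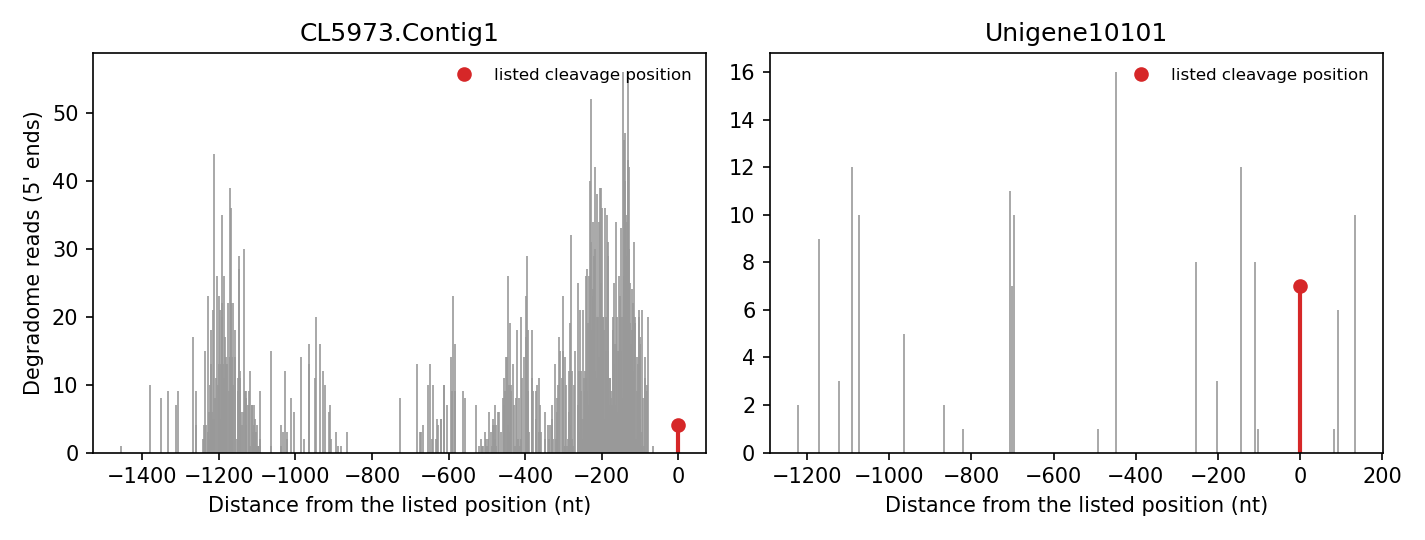
Degradome reads (5′ ends) at each position of CL5973.Contig1 (left) and Unigene10101 (right) against the distance in nt from the listed cleavage position, which is in red. The listed position has 4 reads on the first transcript, where 305 positions are higher, and 7 on the other, where 10 are higher.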

How the data were processed

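Total RNA was extracted with Trizol, and the small RNA library was made with a TruSeq kit, per the labels' protocols. The small RNA table of the authors holds raw reads per entry that were divided among entries sharing them, so they are expected or estimated counts, not normalized, per the file headers. Reads were summed over the entries of a sequence and rounded only for intervals. The degradome table deposited by the authors gives alignments and whole read counts per position, in columns without a header that were read from their values. The aligner, the folding program and the build of the contigs were not stated in the labels or headers.

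Coordinates count from 1, and for all 370 candidate entries they span the precursor. The folding index recomputed within 0.06 for all 370. The members, groups and comparisons were chosen with earlier results of these data known. Named candidates are the 10 with the most reads, those with a listed target, the 5 arm pairs with the most reads, the 3 most-read at 2 loci, and the extremes of precursor length, GC and index. All other named candidates were chosen after their values were seen.

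Overhangs were counted from the first paired base of each arm in the listed structure. Shares have exact binomial (Clopper-Pearson) intervals at 95%. Differences used two-sided Fisher's exact tests, which were also run on simulated data of independent units. That simulation does not cover related sequences or the smaller sets of arm pairs. Python 3.11.15, SciPy 1.17.1, pandas 2.3.3, networkx 3.6.1, matplotlib 3.10.9 and RNAfold 2.7.2 were used. Alternatives were a minimum of 10 reads, 1 sequence per contig, whole reads, 1 locus, weighting by reads, leaving out top sequences, refolding, and stricter degradome limits.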

Additional observations from a re-analysis of the deposited data

Results flagged for a closer look

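Reads away from the listed cleavage positions exceeded those at them on both transcripts that have other positions. On Unigene10101, position 969 held 16 reads, against 7 at the listed position of PC-3p-129934_3. On CL5973.Contig1, position 1356 held 56 reads, against 4 at the listed position of PC-5p-1370707_1 and PC-5p-446421_1. With 1 degradome library and no control, these are given as values only.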

How the results depend on the processing

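The shares of 5′ adenine and 5′ uracil kept their direction and passed Fisher's exact test against the 21-nt candidates under a minimum of 10 reads, 1 sequence per contig, whole reads only, 1 locus only, and without the most-read candidate. The share of the 5p arm did not pass under any of these. Such alternatives did not screen for related sequences on different contigs. Weighted by reads, the uracil share was 12.2%. The share with a listed partner, which did not differ from the 21-nt class by the test, fell below it with a minimum of 10 reads (56.7%, a difference of -9.18 percentage points) and with 1 sequence per contig (65.6%, -0.453). The class held 3.36% of the listed reads without the most-read sequence of the table, 0.473% without its own most-read sequence, and 0.356% of whole reads, and the first of these follows from the smaller total. The candidates with a listed target numbered 1 when a read had to match the transcript alone and 0 when the position needed at least 10 reads, while 2 were counted at category 0 or 1 and 2 at p at most 0.05. Precursor medians moved by less than their intervals under every alternative run, refolding included. The arm-pair comparison, with alternatives added after the data were seen, passed in all 4. No paired analysis was possible because there was 1 library of each kind. Depth limits each single sequence, since a median of 9.25 reads leaves wide counting error.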

Other observations

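The number that closes each candidate's name, which the file headers do not define, was below the listed reads for 171 of the 212 sequences, equal for 40 and above for 1. For PC-3p-52657_9 it was 9 beside 121 reads, for PC-5p-36150_15 it was 15 beside 73, and for PC-5p-7685_85 it was 85 beside 86. Over the class these numbers summed to 1793, beside 3158.5 reads.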
